A study of Bos taurus with 10 samples.

Results

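Genes for the enzymes that cut, protect and crosslink the extracellular matrix are described here in 10 libraries. They were chosen by symbol alone, as every row named for a matrix metalloproteinase (Mmp), a tissue inhibitor of metalloproteinases (Timp), an ADAMTS protease, an ADAMTS-like protein, a lysyl oxidase (Lox and Loxl) or a lysyl hydroxylase (Plod). The rule found 56 of the 21130 rows: 20 Mmp, 4 Timp, 19 Adamts, 5 Adamtsl, 5 Lox and 3 Plod genes. The series set muscle of cattle heterozygous for an edited myostatin gene (MSTN+/-, 7 libraries) against muscle of wild-type cattle (3 libraries), all 24 months old. Nothing in the labels says which edit the animals carry, how many animals were sampled or which muscle was taken, so p-values measure only how these libraries spread, part of which may be technical.

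Collagen and elastin are secreted as soluble precursors. Lysyl hydroxylases modify lysines of collagen inside the cell, and lysyl oxidases oxidise lysines of both proteins outside it, which starts the covalent crosslinks of a fibre. Matrix metalloproteinases are zinc enzymes made as inactive precursors that cleave collagens, basement membrane and other matrix proteins, and TIMPs block their active sites. ADAMTS proteases trim procollagens and cleave proteoglycans such as versican and aggrecan, while ADAMTS-like proteins share their matrix-binding parts but have no protease domain. In skeletal muscle these genes are mostly active in the fibroblasts and progenitors between the fibres.

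The rows did not match the labelled species. Of the 56 genes, 42 were described as Mus musculus, and of the 14 with a blank description 13 had a mouse protein as their best match. None of their gene identifiers or 75 transcript accessions (0 and 0) was found in a RefSeq table of cattle. Of 16 muscle fibre markers, most were near 0, with a median over the list of 0.135 to 0.725 FPKM in every library, Ckm at 0.13 to 1.07 FPKM and Ttn at 0.01 to 0.40 FPKM, while 3 reached 10 FPKM in some library: Mylpf at up to 155 FPKM in wild-type replicate 2, Acta1 at 24.4 FPKM in replicate 1 and Myh2 at 5.73 to 15.3 FPKM with the MSTN+/- label (fragments per kilobase of transcript, scaled to mapped fragments, the unit of the table). The 3 wild-type libraries were also unlike one another: across genes, replicates 2 and 3 correlated at Pearson's r of 0.975, and replicate 1 correlated with them at 0.751 and 0.773. FPKM sums ran from 402716 to 464418, total depth is unknown, and depth relative to MSTN+/- replicate 1 was estimated at 1 to 1.21 from the steps of single fragments in low genes. Groups are therefore called by their labels, each wild-type library is given on its own, and no difference is read as an effect of myostatin or as a property of cattle muscle. In bulk RNA, fewer cells of a type and less RNA per cell cannot be told apart.

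The families differed widely in level. Of the 56 genes, 25 reached 10 FPKM in at least 1 library, 8 reached 100 FPKM and 10 stayed under 1 FPKM in all libraries. The 8 were Mmp2, Mmp14, Timp1, Timp2, Timp3, Lox, Loxl1 and Loxl2, and 0 of the 56 reached 100 FPKM in wild-type replicate 2 or 3. Together the 56 genes held 0.379% to 0.546% of all FPKM across the MSTN+/- libraries, 0.567% in wild-type replicate 1, and 0.0923% and 0.0896% in replicates 2 and 3 of the wild type. Wild-type replicate 1 thus lay next to the 7 MSTN+/- libraries in the total, and the other two wild-type libraries lay far below them.

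**Figure D1:**
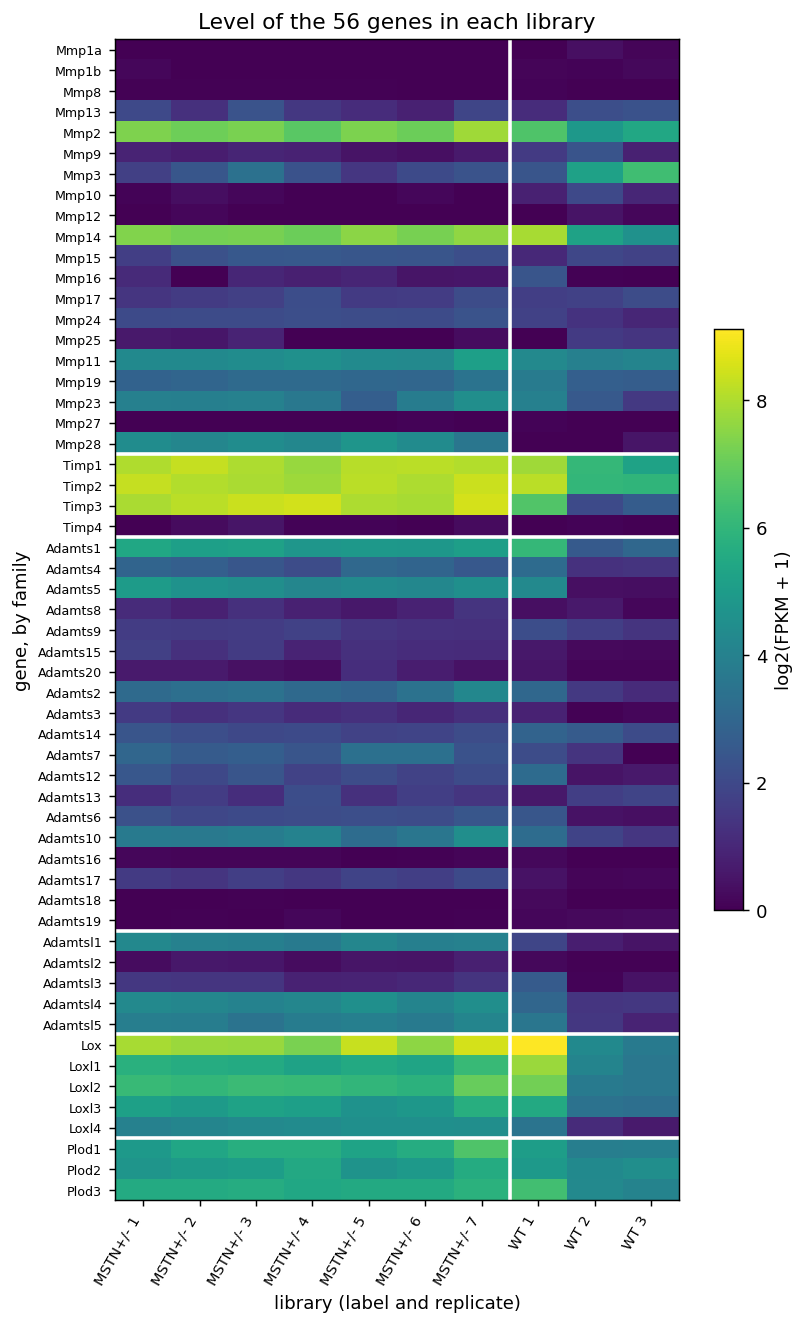
Level of each of the 56 genes (rows, by family, as log2(FPKM + 1)) in each of the 10 libraries (columns, by label and replicate, WT for wild type). The bright rows are Timp1 to Timp3, Mmp2, Mmp14 and Lox, which are bright in the 7 MSTN+/- libraries and in wild-type replicate 1 and dimmer in replicates 2 and 3 of the wild type, whereas Mmp3 is brightest in those 2 libraries.

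In each family sum wild-type replicates 2 and 3 were the lowest libraries, while the place of replicate 1 differed between families. The Timp sum was 777 to 964 FPKM across the MSTN+/- libraries (median 823), 611 FPKM in wild-type replicate 1 and 133.5 and 103.5 FPKM in replicates 2 and 3. The Lox sum was 316 to 635 FPKM (median 384) against 965, 59.2 and 44.3 FPKM. For the Mmp genes the sum was 321 to 511 FPKM (median 395) against 401, 147 and 183 FPKM. The Lox sum was higher in wild-type replicate 1 than in any other library, 2.51 times the MSTN+/- median.

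The smaller sums followed. The Adamts sum was 94.8 to 131 FPKM across the MSTN+/- libraries, 137 FPKM in wild-type replicate 1 and 24.2 and 21.1 FPKM in the others. The Adamtsl sum was 42.2 to 55.7 FPKM against 25.9, 4.29 and 3.44 FPKM, and the Plod sum was 101 to 199 FPKM against 144, 52.0 and 52.0 FPKM. Relative to wild-type replicates 2 and 3, the MSTN+/- median of the Adamtsl sum was 11.2 and 14.0 times as high, the widest gap of the 6 families to those libraries, and that of the Plod sum 2.34 times as high in both comparisons.

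**Figure D2:**
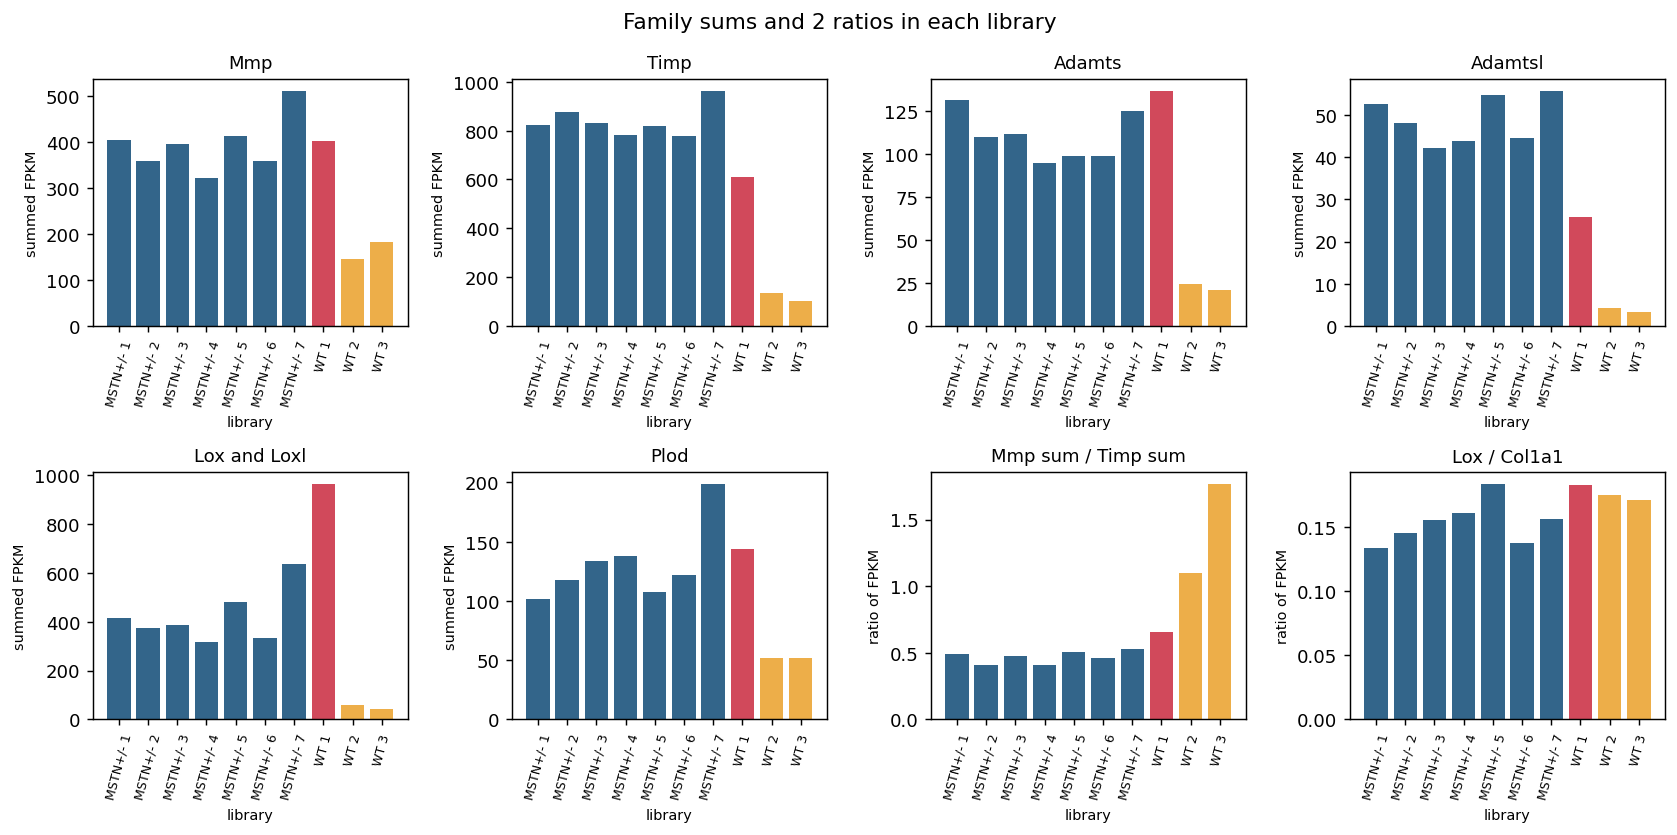
Summed FPKM of each family, the ratio of the Mmp sum to the Timp sum, and the ratio of Lox to Col1a1, in each library (bars, 1 per library, blue for labelled MSTN+/-, red for wild-type replicate 1, yellow for wild-type replicates 2 and 3). The Lox sum is highest in wild-type replicate 1 at 965 FPKM, the Mmp to Timp ratio is highest in replicates 2 and 3 of the wild type, and the Lox to Col1a1 ratio stays between 0.134 and 0.184.

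A secreted and a membrane-bound protease made up most of the Mmp sum. Mmp2 (gene 17390) encodes gelatinase A, which digests denatured collagen and basement membrane, and Mmp14 (gene 17387) encodes the membrane-type enzyme that cleaves collagen at the cell surface and activates the Mmp2 precursor. Together they held 75.3% to 82.5% of the Mmp sum across the MSTN+/- libraries and 84.0% in wild-type replicate 1, but 44.5% and 36.3% in replicates 2 and 3 of the wild type. Mmp2 was at 108 to 223 FPKM across the MSTN+/- libraries (median 155, mean 154 ± 35.6, SD, n = 7) against 96.8, 27.8 and 42.7 FPKM in the wild type (replicates 1, 2 and 3, the order kept from here on). All 7 values lay above all 3, and the change, MSTN+/- minus wild type in mean log2(FPKM + 1), was 1.61 (SE 0.33, limma adjusted p = 0.00328). Against wild-type replicate 1 alone, a fit that assumes this library varies like the 7, the change was 0.64 and missed the threshold (limma adjusted p = 0.1).

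Mmp14 did not separate the labelled groups. It was at 133 to 193 FPKM across the MSTN+/- libraries (median 150.2, mean 160.0 ± 21.2, SD, n = 7), and at 240.1, 37.4 and 23.6 FPKM among the wild-type libraries. Replicate 1 lay above the MSTN+/- range and the others below it, and the difference of 1.39 missed the threshold (limma adjusted p = 0.0613). Mmp14 passed at 2.38 without wild-type replicate 1 (limma adjusted p = 1.33e-06) and at 2.48 with library weights (limma adjusted p = 2.96e-05). Against wild-type replicate 1 alone the change of Mmp14 turned to -0.59. The TIMP that takes part in Mmp2 activation at the cell surface, Timp2, was set against it as a ratio: Mmp14 over Timp2 was 0.528 to 0.633 across the MSTN+/- libraries and 0.833, 0.583 and 0.387 among the wild-type libraries.

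Among the other membrane-type enzymes the levels were low. Mmp24 was at 3.16 to 3.99 FPKM across the MSTN+/- libraries against 2.43, 1.55 and 0.99 FPKM, with all 7 above all 3 (log2 change 0.76, limma adjusted p = 0.0038), a call lost with quantile normalization (change 0.25, limma adjusted p = 0.234) and against the first wild-type library alone (0.35, limma adjusted p = 0.0734). Mmp15 was at 2.20 to 4.80 FPKM against 1.07, 2.82 and 2.44 FPKM, and its difference of 0.70 (limma adjusted p = 0.0326) was lost in 11 of 18 alternatives, over which the adjusted p ran from 0.00738 to 0.478. It was 0.43 without wild-type replicate 1 (limma adjusted p = 0.0817). Mmp17 was at 1.64 to 3.46 FPKM against 2.20, 2.40 and 3.31 FPKM, which overlapped, with a difference of -0.11 (limma adjusted p = 0.660). Mmp16 and Mmp25 were not tested: Mmp16 reached 4.23 FPKM in wild-type replicate 1 and at most 1.13 FPKM elsewhere, and Mmp25 was at 1.92 and 1.68 FPKM in replicates 2 and 3 of the wild type and at most 0.86 FPKM in the other 8.

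Mmp3 went the other way. It encodes stromelysin-1, which cleaves proteoglycans, laminin and fibronectin and activates other Mmp precursors. Its level (gene 17392) was 35.7 FPKM in wild-type replicate 2 and 78.2 FPKM in replicate 3, where it was the highest Mmp gene, 4.32 FPKM in replicate 1, and 1.75 to 9.58 FPKM across the MSTN+/- libraries (median 3.88). Only wild-type replicates 2 and 3 were outside the MSTN+/- range, and Mmp3 supplied 24.4% and 42.8% of their Mmp sums against 0.424% to 2.42% across the MSTN+/- libraries. The log2 difference of Mmp3 was -2.40 ± 0.70 (SE, limma adjusted p = 0.0193). It was the only 1 of the 41 genes tested to fall, where 12.8% of all genes tested did. The call was lost without wild-type replicate 2 (-2.12, limma adjusted p = 0.0843), without replicate 3 (-1.56, limma adjusted p = 0.104) and against replicate 1 alone (-0.17, limma adjusted p = 0.824), and without replicate 1 the change was -3.51 (limma adjusted p = 5.04e-05).

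Several relatives of Mmp3 sit beside one another in the genome. In the RefSeq table of cattle (ARS-UCD2.0), not the species the rows describe, MMP13, MMP12, MMP3 and MMP1 are adjacent, as are MMP8 and MMP27. Mmp10, the close paralogue stromelysin-2, was at 0.78, 3.03 and 0.96 FPKM among the wild-type libraries and at 0 to 0.26 FPKM across the MSTN+/- libraries, so all 7 lay below all 3, but it reached 1 FPKM in too few libraries to be tested. The collagenase gene Mmp13 was at 0.80 to 4.0 FPKM against 1.23, 3.51 and 3.90 FPKM, which overlapped, with a difference of -0.31 (limma adjusted p = 0.488). Mmp12, the macrophage metalloelastase gene, was at most 0.41 FPKM, Mmp1a at most 0.28 FPKM, Mmp1b at most 0.15 FPKM, Mmp8 at most 0.07 FPKM and Mmp27 at most 0.06 FPKM. With Mmp1a and Mmp1b near copies of each other, their reads may have been split. Mmp9, gelatinase B, which leukocytes store and release, was at 1.95, 4.16 and 0.78 FPKM among the wild-type libraries and at 0.29 to 0.90 FPKM across the MSTN+/- libraries and was not tested.

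Mmp28 separated the labels in every fit made. It encodes epilysin, a secreted Mmp described in skin and other epithelia. Mmp28 (gene 118453) was at 10.9 to 26.2 FPKM across the MSTN+/- libraries (mean 19.0 ± 4.61, SD, n = 7), was listed at 0 in wild-type replicates 1 and 2, and was at 0.43 FPKM in replicate 3. The log2 change was 4.11 ± 0.23 (SE, limma adjusted p = 7.53e-07), 4.03 without wild-type replicate 1 and 4.28 against it alone, and past the threshold in 19 of 19 alternatives. It was the third highest Mmp gene by MSTN+/- median and the only Mmp gene over 10 FPKM in all 7 MSTN+/- libraries that stayed under 1 FPKM in all 3 wild-type libraries. Because it reached 1 FPKM only in MSTN+/- libraries, passing the filter already implied its difference.

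Mmp11, Mmp19 and Mmp23 did not pass the threshold. Mmp11, stromelysin-3, which is activated inside the cell by furin, was at 18.4 to 34.1 FPKM across the MSTN+/- libraries and at 18.4, 14.8 and 16.2 FPKM among the wild-type libraries. Its 7 values all lay above the 3, replicate 1 being just under the lowest, and the difference of 0.37 missed the threshold (limma adjusted p = 0.122). Mmp19 was at 6.20 to 10.2 FPKM against 12.9, 5.72 and 5.43 FPKM, with a difference of 0.02 that turned to -0.18, -0.04 and -0.29 with median-of-ratios, TPM and quantile scaling (limma adjusted p = 0.958 as deposited). Mmp23, a membrane-anchored Mmp, was at 5.61 to 21.6 FPKM against 14.6, 4.89 and 1.87 FPKM (change 1.12, limma adjusted p = 0.0793). It passed the threshold without MSTN+/- replicate 5 (1.30, limma adjusted p = 0.0425) and on leaving out wild-type replicate 1 (1.76, limma adjusted p = 0.00218). With library weights it passed as well (2.10, limma adjusted p = 0.00696).

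By summed level the inhibitors were the most abundant family across the MSTN+/- libraries. Timp1, Timp2 and Timp3 were at similar levels across the MSTN+/- libraries, with medians of 266, 267 and 289 FPKM and ranges of 209 to 320, 217 to 329.5 and 239.9 to 368 FPKM that overlapped, so their order there did not exceed the spread. All 3 rose, where 31.8% of all genes tested did, and so did 3 of 3 without wild-type replicate 1, where 42.2% of all genes did. Against replicate 1 alone the changes of Timp1, Timp2 and Timp3 were 0.24, -0.087 and 1.565. Timp4 was listed at 0 in some libraries and reached at most 0.43 FPKM.

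Timp3 set the wild-type libraries apart from one another and from the 7. It encodes the TIMP that stays bound to the matrix and also inhibits ADAM and ADAMTS proteases. Timp3 (gene 21859) had a mean of 298 ± 53.4 FPKM (SD, n = 7) across the MSTN+/- libraries and was at 98.7 FPKM in wild-type replicate 1, 3.18 FPKM in replicate 2 and 5.34 FPKM in replicate 3. All 7 values lay above all 3, with a log2 difference of 4.42 (SE 0.78, limma adjusted p = 0.00142) that was 5.84 without wild-type replicate 1 and 1.56 against it alone, past the threshold in 19 of 19 alternatives. Its share of the Timp sum was 30.1% to 45.6% across the MSTN+/- libraries and 16.1%, 2.38% and 5.16% among the wild-type libraries.

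Timp1 and Timp2 had about the same level in wild-type replicate 1 as in the 7. Timp1 (gene 21857), an inducible soluble inhibitor, was at 225 FPKM there and at 66.1 and 37.1 FPKM in replicates 2 and 3, with a log2 difference of 1.68 (SE 0.42, limma adjusted p = 0.00925) that was 0.24 against replicate 1 alone (limma adjusted p = 0.305). Timp2 (gene 21858) was at 288 FPKM in replicate 1, inside the MSTN+/- range, and at 64.2 and 61.1 FPKM in the other two. Its difference of 1.37 ± 0.41 (SE, limma adjusted p = 0.0209) was lost with median-of-ratios scaling (1.16, limma adjusted p = 0.0531), without wild-type replicate 2 (1.02, limma adjusted p = 0.111), without replicate 3 (0.99, limma adjusted p = 0.113) and against replicate 1 alone, where it was -0.09 (limma adjusted p = 0.747).

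Proteases and inhibitors were not in a fixed proportion. The Mmp sum was 0.409 to 0.531 times the Timp sum across the MSTN+/- libraries, 0.656 times in wild-type replicate 1, and 1.098 and 1.77 times in replicates 2 and 3 of the wild type. Wild-type replicates 2 and 3 were the libraries with the highest Mmp3 and the lowest Timp3. The ratio compares levels per transcript length and says nothing of protein or of active enzyme.

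**Figure D3:**
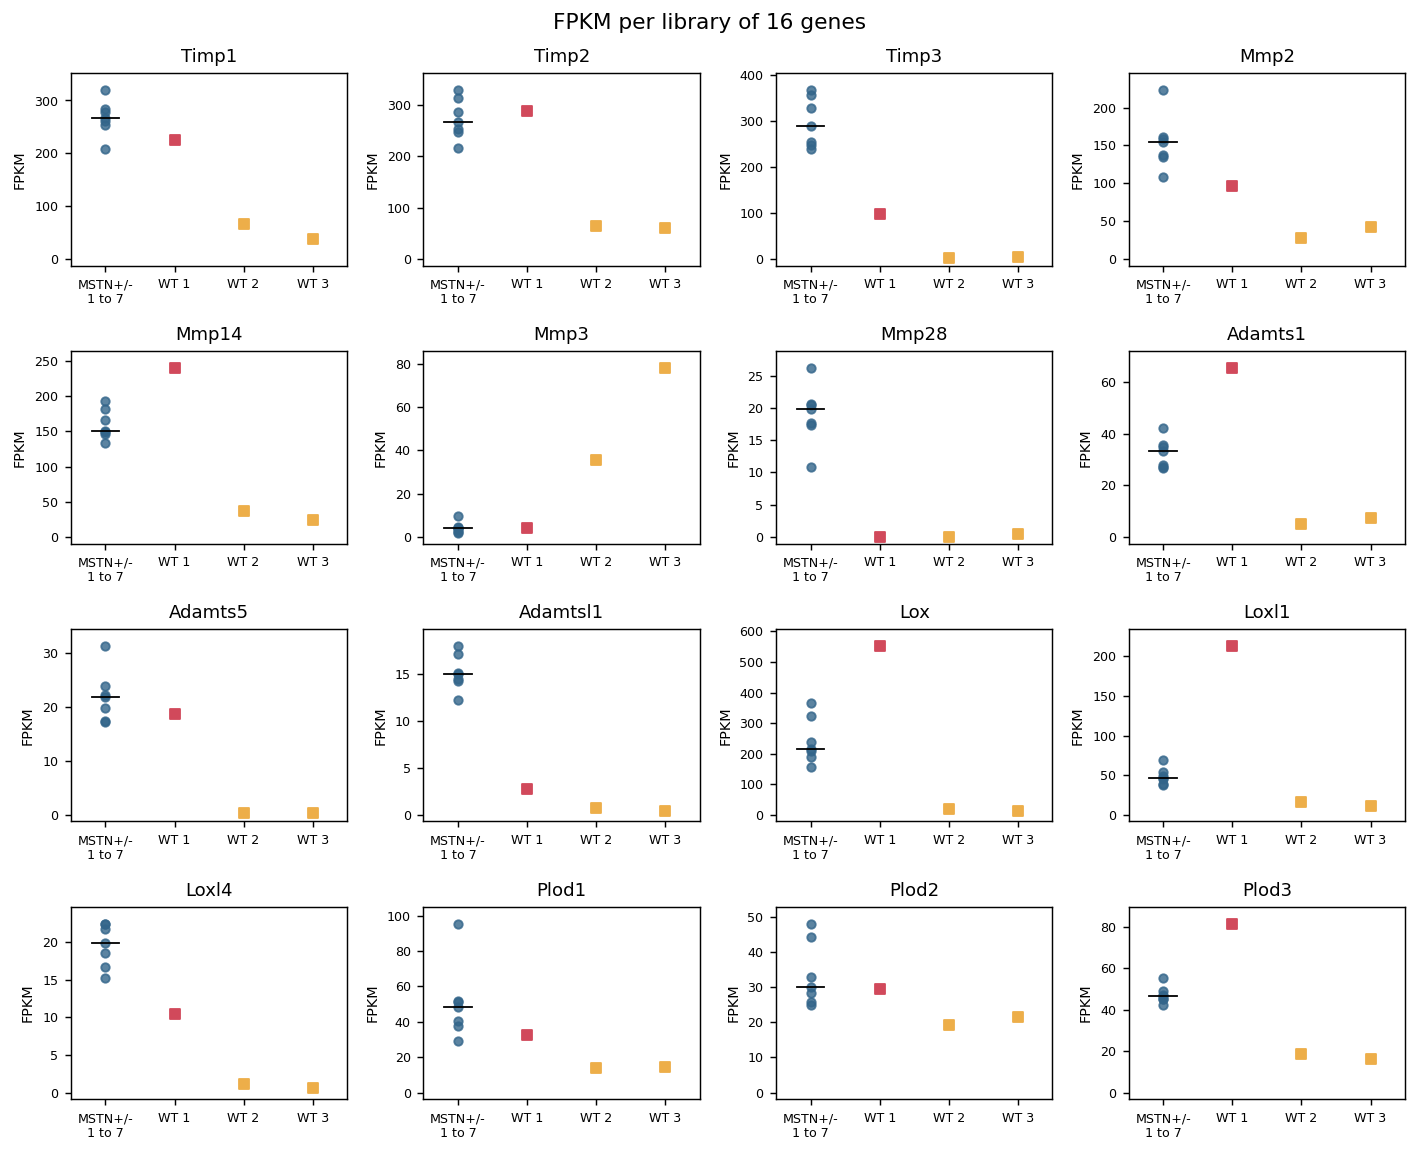
FPKM per library of 16 genes of the set (points for the 7 libraries labelled MSTN+/- with their median as a line, squares for wild-type replicates 1, 2 and 3, each axis from 0). In Timp3, Mmp2, Mmp28, Adamtsl1 and Loxl4 all 3 squares lie below the points, in Lox, Loxl1, Mmp14, Adamts1 and Plod3 the square of wild-type replicate 1 lies above them, and in Mmp3 the squares of wild-type replicates 2 and 3 do.

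Among the Adamts genes, 2 for enzymes that cleave hyaluronan-binding proteoglycans had the highest MSTN+/- medians. Adamts1 (gene 11504) was at 26.9 to 42.3 FPKM across the MSTN+/- libraries (median 33.2), and at 65.5, 4.94 and 7.26 FPKM among the wild-type libraries. Replicate 1 was above the range and the others below it, and the difference of 1.16 did not pass (limma adjusted p = 0.135), with 2.24 without replicate 1 (limma adjusted p = 2.73e-06) and -1.005 against it alone (limma adjusted p = 0.00607). Adamts5 (gene 23794), a main aggrecan-cleaving enzyme and the neighbour of Adamts1 in the cattle gene table, was at 17.2 to 31.2 FPKM (median 21.9) against 18.6, 0.31 and 0.27 FPKM. Its log2 difference of 2.82 (SE 0.71, limma adjusted p = 0.01) rested on replicates 2 and 3: it was 2.17 without replicate 2 (limma adjusted p = 0.0579), 2.15 without replicate 3 (limma adjusted p = 0.0576) and 0.20 against replicate 1 alone (limma adjusted p = 0.566).

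The rest of that group was lower. Adamts4 was at 3.33 to 7.39 FPKM against 8.08, 1.46 and 1.56 FPKM (change 0.73, limma adjusted p = 0.143), and Adamts9 at 1.42 to 2.36 FPKM against 3.40, 2.21 and 1.58 FPKM (change -0.22, limma adjusted p = 0.332). Adamts15 rose, at 0.87 to 2.30 FPKM against 0.49, 0.18 and 0.15 FPKM (change 0.95, limma adjusted p = 0.00308), except with quantile normalization (0.21, limma adjusted p = 0.491) and against replicate 1 alone (0.71, limma adjusted p = 0.0799). Adamts8, next to Adamts15 in the cattle table, was at 0.50 to 1.57 FPKM against 0.28, 0.55 and 0.11 FPKM, with a difference of 0.60 (limma adjusted p = 0.0312). Quantile normalization turned it to -0.13 and its call was lost without wild-type replicate 3 (0.48, limma adjusted p = 0.139), with library weights (0.74, limma adjusted p = 0.0948) and against replicate 1 alone (0.62, limma adjusted p = 0.134). Adamts20 was at 0.10 to 1.29 FPKM and was not tested.

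The procollagen N-proteinases, which remove the amino-terminal propeptides of fibrillar procollagens, differed from one another. Adamts2 (gene 216725) was at 6.59 to 17.6 FPKM against 7.26, 1.84 and 1.15 FPKM, a log2 difference of 1.49 (SE 0.39, limma adjusted p = 0.0121) that was lost without wild-type replicate 2 (1.29, limma adjusted p = 0.0602), without replicate 3 (1.09, limma adjusted p = 0.0679) and against replicate 1 alone (0.32, limma adjusted p = 0.508). Adamts3 was at 0.96 to 1.94 FPKM with all 7 above the wild-type values of 0.81, 0.05 and 0.13 FPKM (change 0.90, limma adjusted p = 0.0046), and was lost with quantile normalization (0.19, limma adjusted p = 0.520) and against replicate 1 alone (0.42, limma adjusted p = 0.189). Adamts14 was at 2.46 to 4.31 FPKM against 6.43, 5.06 and 3.24 FPKM. It was the only member of the trio with a negative change, -0.47, which missed the threshold as deposited (limma adjusted p = 0.0649) and passed it in 5 of 18 alternatives, among them median-of-ratios scaling (-0.65, limma adjusted p = 0.0256) and the fits without MSTN+/- replicate 1, without wild-type replicate 3 (-0.69, limma adjusted p = 0.0174) and against replicate 1 alone (-0.84, limma adjusted p = 0.0125).

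Of the other Adamts genes, Adamts10 was highest. Adamts10 (gene 224697), linked to fibrillin microfibrils, was at 8.30 to 21.5 FPKM against 8.35, 2.59 and 1.73 FPKM, a log2 difference of 1.62 (SE 0.36, limma adjusted p = 0.00533) that was 0.57 against wild-type replicate 1 alone (limma adjusted p = 0.223). Its paralogue Adamts6 was at 2.81 to 4.46 FPKM against 4.44, 0.37 and 0.31 FPKM, and its difference of 1.06 (limma adjusted p = 0.0433) was lost in 13 of 18 alternatives and turned to -0.29 against wild-type replicate 1 alone, with the adjusted p running from 2.56e-06, without wild-type replicate 1, to 0.270. Adamts17 was at 1.66 to 3.17 FPKM with all 7 above 0.35, 0.08 and 0.13 FPKM, and its difference of 1.42 ± 0.17 (SE, limma adjusted p = 1.08e-04) passed in 18 of 18 alternatives. Because Adamts17 reached 1 FPKM only in MSTN+/- libraries, passing the filter already implied its difference.

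The genes for enzymes that cleave cartilage oligomeric matrix protein, Adamts7 and Adamts12, lay on opposite sides of the MSTN+/- range in wild-type replicate 1. Adamts7 was at 3.91 to 9.36 FPKM against 3.37, 1.61 and 0 FPKM, with all 7 above all 3 (change 1.65, limma adjusted p = 0.00908, and 0.69 against replicate 1 alone, limma adjusted p = 0.178). Adamts12 was at 2.45 to 4.51 FPKM against 8.06, 0.41 and 0.54 FPKM, with a difference of 0.66 (limma adjusted p = 0.292), 1.53 without replicate 1 (limma adjusted p = 4.68e-05) and -1.09 against it alone (limma adjusted p = 0.00797). Adamts13, the von Willebrand factor-cleaving enzyme made in liver, was at 1.26 to 3.49 FPKM against 0.51, 2.23 and 2.61 FPKM, which overlapped (change 0.12, limma adjusted p = 0.750). Adamts16, Adamts18 and Adamts19 reached at most 0.15, 0.17 and 0.19 FPKM.

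Of 4 ADAMTS-like genes tested, 3 rose, where 31.8% of all genes tested did. Adamtsl1 (gene 77739) was at 12.3 to 18.0 FPKM across the MSTN+/- libraries (mean 15.2 ± 1.89, SD, n = 7) and at 2.75, 0.72 and 0.40 FPKM among the wild-type libraries. Adamtsl4 (gene 229595), which binds fibrillin and is needed for the fibres that hold the lens of the eye, was at 15.7 to 22.1 FPKM (mean 18.4 ± 2.60, SD, n = 7) against 7.13, 1.68 and 1.76 FPKM. In both, all 7 values lay above all 3, and the log2 changes of 2.95 ± 0.26 and 2.30 ± 0.31 (SE, limma adjusted p = 1.69e-05 and 2.62e-04) passed in 19 of 19 alternatives each, down to 2.10 and 1.24 against wild-type replicate 1 alone.

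In Adamtsl5 wild-type replicate 1 lay inside the MSTN+/- range, and in Adamtsl3 it lay above it. Adamtsl5 (gene 66548) was at 10.2 to 16.6 FPKM against 10.8, 1.79 and 0.89 FPKM, a difference of 1.85 ± 0.45 (SE, limma adjusted p = 0.00766), but 0.28 against replicate 1 alone (limma adjusted p = 0.262). Adamtsl3 was at 0.84 to 1.80 FPKM against 5.07, 0.07 and 0.36 FPKM, with a difference of 0.16 (limma adjusted p = 0.785) that was 0.94 without replicate 1 (limma adjusted p = 0.00246) and -1.39 against it alone (limma adjusted p = 0.00347). Adamtsl2 was at 0.22 to 0.76 FPKM against 0.14, 0.03 and 0.03 FPKM, too low to be tested.

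The lysyl oxidases were led by Lox itself. Lox (gene 16948) was at 156 to 365 FPKM across the MSTN+/- libraries (median 215, mean 242 ± 75.3, SD, n = 7), at 553 FPKM in wild-type replicate 1, with 19.2 and 12.4 FPKM in replicates 2 and 3 of the wild type. Loxl1 (gene 16949), needed for elastic fibres, was at 36.9 to 69.7 FPKM against 213, 16.4 and 11.2 FPKM. Loxl2 (gene 94352), which crosslinks collagen IV, was at 56.5 to 127 FPKM against 142, 12.6 and 11.1 FPKM. In these 3 genes wild-type replicate 1 lay above all 7 MSTN+/- libraries and the other two wild-type libraries below all 7.

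The changes of those 3 genes did not pass with all wild-type libraries. They were 2.14 ± 0.93, 0.45 ± 0.71 and 1.35 ± 0.65 for Lox, Loxl1 and Loxl2 (SE, limma adjusted p = 0.0839, 0.620 and 0.113). On leaving out wild-type replicate 1 they were 3.83, 1.75 and 2.51 (limma adjusted p = 1.91e-06, 4.41e-05 and 8.43e-06), and against it alone -1.24, -2.13 and -0.97 (limma adjusted p = 0.0269, 3.05e-04 and 0.0419). Each of the 3 therefore passed in both directions, according to which wild-type library it was set against.

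Loxl3 and Loxl4 were the lower members. Loxl3 (gene 16950) was at 24.0 to 51.8 FPKM against 45.6, 9.75 and 9.07 FPKM, with replicate 1 inside the MSTN+/- range (change 1.001, limma adjusted p = 0.0807, and 1.72 without replicate 1, limma adjusted p = 6.12e-05). Loxl4 (gene 67573) was the only lysyl oxidase gene to rise, where 31.8% of all genes tested did. It was at 15.2 to 22.4 FPKM (mean 19.5 ± 2.86, SD, n = 7), above 10.4, 1.20 and 0.58 FPKM. Its log2 difference of 2.58 (SE 0.49, limma adjusted p = 0.00212) passed in 19 of 19 alternatives and was 0.84 against wild-type replicate 1 alone (limma adjusted p = 0.00854).

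Lox followed its main substrate closely. Col1a1, the collagen I chain, was at 72.2 to 3017 FPKM and Lox at 12.4 to 553 FPKM, 41.8-fold and 44.7-fold ranges over the 10 libraries, yet the ratio of Lox to Col1a1 was 0.134 to 0.184, a 1.37-fold range. The ratio was 0.134 to 0.184 across the MSTN+/- libraries and 0.183, 0.175 and 0.171 among the wild-type libraries, so the groups overlapped. Of the 24 genes of the set that reached 10 FPKM in some library and 0 in none, the ratio of Mmp14 to Col1a1 had the next narrowest range, 4.29-fold, and that of Plod2 a 30.7-fold range. This likeness was noticed after the values were seen, the libraries share their scaling, and no test was made of it.

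Of the lysyl hydroxylases, Plod1 alone rose, where 31.8% of all genes tested did. Plod1 (gene 18822), which acts mainly on lysines of the collagen helix, was at 29.0 to 95.4 FPKM across the MSTN+/- libraries (median 48.5) and at 32.6, 14.1 and 14.4 FPKM among the wild-type libraries. Its log2 change was 1.29 ± 0.35 (SE, limma adjusted p = 0.0135), and the call was lost without wild-type replicate 2 (1.097, limma adjusted p = 0.0691), without replicate 3 (1.11, limma adjusted p = 0.0672) and against replicate 1 alone (0.53, limma adjusted p = 0.377). Plod2 (gene 26432), which acts on the telopeptides that form the crosslinks, was at 24.8 to 48.0 FPKM against 29.5, 19.2 and 21.6 FPKM, a difference of 0.48 (limma adjusted p = 0.106) that passed without replicate 1 (0.65, limma adjusted p = 0.0285). Plod3 (gene 26433), which also adds sugars to hydroxylysine, was at 42.2 to 55.4 FPKM against 81.6, 18.8 and 16.1 FPKM, a difference of 0.67 (limma adjusted p = 0.191), with 1.39 without replicate 1 (limma adjusted p = 1.44e-06) and -0.78 against it alone (limma adjusted p = 0.00139).

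The order of the 3 genes differed between libraries. By MSTN+/- median it was Plod1, Plod3 and Plod2, with ranges of Plod1 and Plod3 that overlapped, in wild-type replicate 1 it was Plod3, Plod1 and Plod2, and in replicates 2 and 3 of the wild type it was Plod2, Plod3 and Plod1. Plod2 was at 0.0141 to 0.0457 times Col1a1 across the MSTN+/- libraries, 0.00976 times in wild-type replicate 1, and 0.175 and 0.299 times in replicates 2 and 3.

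Counted together, 41 of the 56 genes reached 1 FPKM in at least 3 libraries and were tested in limma, and 15 did not. Of the 41, 21 were higher across the MSTN+/- libraries (51.2%, where 31.8% of all 14047 genes tested were), 1 was lower (2.44%, against 12.8%) and 19 did not pass. By family, 4 of 11 Mmp genes rose and 1 fell, and 3 of 3 Timp, 9 of 15 Adamts, 3 of 4 Adamtsl, 1 of 5 Lox and 1 of 3 Plod genes rose. The median difference of the 41 was 1.06, beside 0.17 for all genes tested. Of the 41, 5 (Mmp28, Adamts8, Adamts15, Adamts3 and Adamts17) reached 1 FPKM only in MSTN+/- libraries, so for them passing the filter already implied a difference. All 7 values lay above all 3 for 12 of the 41 (29.3%), close to the 25.2% of all genes, and below for 0 of 41, where 6.86% of all genes did.

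The counts depended on which wild-type libraries were used. Without wild-type replicate 1, 33 of 41 rose (80.5%, background 42.2%) and 1 fell (2.44%, background 31.9%), with a median difference of 1.72. Against replicate 1 alone 7 rose (17.1%, background 33.7%) and 11 fell (26.8%, background 10.8%), with a median of 0.21, beside 0.26 for all genes tested. In both fits 6 genes rose: Mmp28, Timp3, Adamts17, Adamtsl1, Adamtsl4 and Loxl4. Another 9 rose in the first and fell in the second: Mmp14, Mmp19, Adamts1, Adamts12, Adamtsl3, Lox, Loxl1, Loxl2 and Plod3. The 2 fits share the 7 MSTN+/- libraries, so their calls are not independent.

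**Figure D4:**
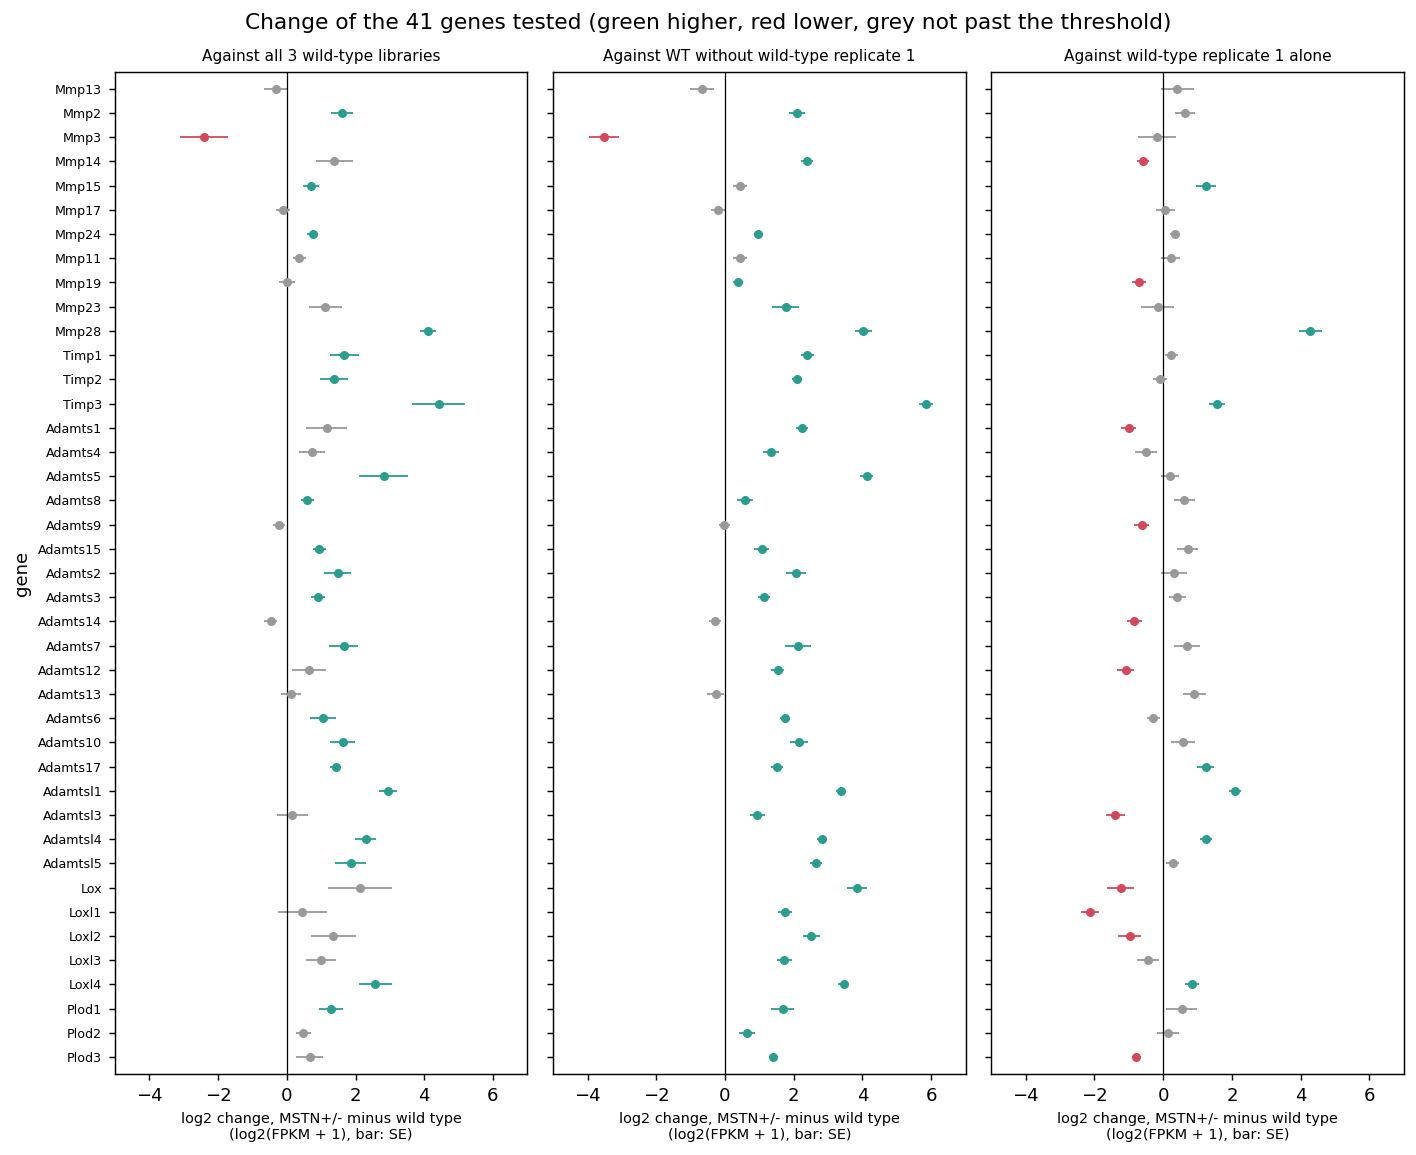
Log2 change of each of the 41 genes tested (MSTN+/- minus wild type on log2(FPKM + 1), points, with the standard error as a bar) in the fit with all 3 wild-type libraries, without wild-type replicate 1, and against wild-type replicate 1 alone, with green for higher and red for lower at a limma adjusted p under 0.05 and grey for the rest. In the panel without replicate 1, 33 genes are green, and against replicate 1 alone 7 are green and 11 are red, the lysyl oxidases Lox, Loxl1 and Loxl2 among them.

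Library by library the same split appears. Wild-type replicates 2 and 3 both lay below the whole MSTN+/- range for 33 of the 41 genes (80.5%, against 42% of all genes tested), and both above it for 1, Mmp3 (2.44%, against 31.7%). Wild-type replicate 1 lay above that range for 12 genes (29.3%, against 19.8%), within it for 14 (34.1%, against 30.2%) and below it for 15 (36.6%, against 50%). It was at least 2-fold above both other wild-type libraries for 29 of the 41 (70.7%, against 18.2% of all genes), and at or under 0.5 of both for 4 (9.76%, against 23.8%).

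The 7 MSTN+/- libraries also differed among themselves. Replicate 7 held the highest value of the 7 for 21 of the 41 genes (51.2%), where it did so for 18.4% of all genes tested, and replicate 4 for 4 of 41 (9.76%), against 28% of all genes. Replicates 1, 2, 3, 5 and 6 did so for 8, 1, 2, 4 and 1 of the 41, against 11.5%, 7.78%, 10.4%, 14.1% and 9.25% of all genes. The 21 included 4 of 5 lysyl oxidases, all but Loxl4, and 3 of 3 lysyl hydroxylases, together with Mmp2, Mmp14, Timp2 and Timp3. Plod1 was at 95.4 FPKM and Loxl2 at 127 FPKM in replicate 7, where the next highest MSTN+/- libraries had 51.5 and 73.2 FPKM.

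**Figure D5:**
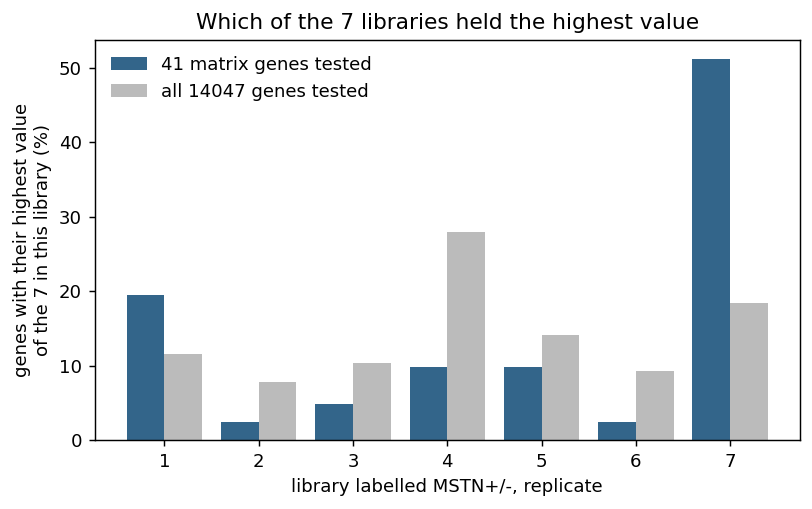
Share of genes (vertical axis, %) that had their highest value of the 7 libraries labelled MSTN+/- in each replicate (horizontal axis), for the 41 genes of the set tested (blue) and all 14047 genes tested (grey). Replicate 7 stands at 51.2% of the 41 against 18.4% of all genes, and replicate 4 at 9.76% against 28%.

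Marker genes of cell types also differed between the libraries. The summed FPKM of 13 fibroblast markers was 2876 to 5988 across the MSTN+/- libraries, highest in replicate 7 and lowest in replicate 4, and 6483, 414 and 282 in wild-type replicates 1, 2 and 3. Col1a1 led this sum in every library. The median over the list was 110 to 207 FPKM across the MSTN+/- libraries and 78.1, 17.9 and 7.06 FPKM among the wild-type libraries. By the median, then, replicate 1 of the wild type lay below the MSTN+/- range. The sum of 12 pluripotency markers was 1264 to 2097, 32.1, 2827 and 3224. Pou5f1 was at 633 to 848 FPKM across the MSTN+/- libraries and at 0.38, 346 and 533 FPKM among the wild-type libraries. Klf4 was likewise highest across the MSTN+/- libraries, and Sox2, at 212 to 357 FPKM there, overlapped wild-type replicate 2 at 224 FPKM. The rest, such as Nanog at 5.95 to 55.0 FPKM against 0.91, 234 and 177 FPKM, were all highest in wild-type replicates 2 and 3. The sum of 8 smooth muscle and pericyte markers was 182 to 329 and 2382, 102 and 89.1, led in replicate 1 by Acta2 at 1402 FPKM and Tagln at 861 FPKM, while Myh11 was at most 2.53 FPKM. All 3 lists were drawn up with earlier results known, and their part in the differences above was not tested.

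Markers of blood-derived cells, which release Mmp9, Mmp8 or Mmp12, were uneven. Of 10 macrophage markers the sum was 6.27 to 16.1 FPKM across the MSTN+/- libraries and 31.9, 14.2 and 15.0 FPKM among the wild-type libraries, with Adgre1 listed at 0 in all 7 MSTN+/- libraries and at most 0.48 FPKM. Cd68 was at 3.72 to 13.1 FPKM over all 10 libraries, and Lyz2, C1qa and C1qb reached 9.81, 4.41 and 4.85 FPKM in wild-type replicate 1. Of the neutrophil and mast cell markers, Cxcr2 was at 3.87 to 13.03 FPKM and Kit reached 31.9 FPKM in wild-type replicate 2, while S100a8 was at most 0.28 FPKM. The leukocyte marker Ptprc was at most 0.04 FPKM. The part of these cells in the levels of Mmp9, Mmp8 and Mmp12 was not tested. Of 8 epithelial markers the sum was 82.4 to 211 and 5.44, 320.2 and 524 FPKM. Epcam, Cdh1, Cldn4 and Esrp1 were highest in wild-type replicates 2 and 3, with Epcam at 12.85 to 31.3 FPKM against 0.31, 95.4 and 152 FPKM. Krt8, Krt5 and Krt14 were instead highest across the MSTN+/- libraries, with Krt14 at 7.42 to 24.2 FPKM there and listed at 0 in the wild type. Krt18 overlapped. Of 8 endothelial markers the sum was 20.2 to 29.4 and 3.25, 30.5 and 27.4 FPKM. Tek led the endothelial sum across the MSTN+/- libraries at 15.8 to 23.6 FPKM. Pecam1 led it in wild-type replicates 2 and 3 at 26.4 and 24.3 FPKM, and the median over that list was at most 0.745 FPKM in any library. Lymphocyte markers (7) summed to at most 4.06 FPKM, chondrocyte and osteoblast markers (9) to 45.4 to 68.6 and 37.5, 113 and 76.3 FPKM, neutrophil and mast cell markers (7) to 8.29 to 19.1 and 3.87, 45.2 and 28.3 FPKM, and muscle fibre markers (16) to 27.5 to 57.7 and 28.9, 169 and 140.5 FPKM, of which Mylpf alone made up 155 and 125 FPKM in replicates 2 and 3 of the wild type. Alpl alone made up 107 and 72.5 FPKM of the chondrocyte and osteoblast sums in those 2 libraries.

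Genes that work with the set were read from 9 lists. Their counts stand beside 31.8% of all genes tested called higher and 12.8% called lower with all wild-type libraries, 42.2% and 31.9% without replicate 1, and 33.7% and 10.8% against it alone. For the lists with 0 genes lower in limma, the number lower at an unadjusted p under 0.05 was 1 in the plasminogen list and 0 in the other 5. Of 15 genes for collagen prolyl hydroxylation, folding and glycosylation 9 rose (all genes 31.8%) and 0 fell (12.8%), with a median change of 1.55, 15 of 15 rose without wild-type replicate 1, and 2 rose and 4 fell against it alone (median 0.02). The prolyl hydroxylase gene P3h2 was at 4.61 ± 1.28 FPKM (SD, n = 7) against 2.17, 0.31 and 0.35 FPKM, and the chaperone genes Fkbp7 and Crtap were at 45.6 ± 8.43 and 96.4 ± 12.6 FPKM against 25.7, 4.35 and 3.41 FPKM and 72.5, 42.7 and 40.1 FPKM. Of 10 collagen substrate genes 7 rose (all genes 31.8%) and 0 fell (12.8%), with a median of 2.38, 10 rose without replicate 1, and 0 rose and 2 fell against it alone, with Col3a1 at 753 ± 185 FPKM against 511, 50.4 and 65.8 FPKM. The median of the collagen genes was 3.53 without replicate 1 and -0.18 against it alone.

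Procollagen C-proteinases, which cut the other end of procollagen, had 4 genes tested, 2 higher and 1 lower. Without wild-type replicate 1, 3 were higher and 1 lower, and the median change against it alone was -0.091. Bmp1, the main C-proteinase, rose, at 61.1 ± 9.85 FPKM against 58.7, 10.4 and 7.52 FPKM (change 1.78, limma adjusted p = 0.0137). The call was lost without wild-type replicate 2 (1.45, limma adjusted p = 0.0737), without replicate 3 (1.24, limma adjusted p = 0.0759) and against replicate 1 alone (0.04, limma adjusted p = 0.876). Its enhancer Pcolce was at 719 ± 64.8 FPKM, above 405, 75.8 and 89.6 FPKM (change 2.34, limma adjusted p = 0.00154, and 0.82 against replicate 1 alone, limma adjusted p = 0.00136). The paralogue Pcolce2 fell, at 6.501 ± 0.93 FPKM against 7.71, 11.4 and 8.13 FPKM (change -0.42, limma adjusted p = 0.0468), a call lost in 9 of 9 fits that left out an MSTN+/- library or wild-type replicate 2 or 3 and, with -0.23, against replicate 1 alone (limma adjusted p = 0.355).

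Elastic fibre and transglutaminase genes had 9 of 19 higher (all genes 31.8%) and 0 lower (12.8%), with a median of 1.68. Without wild-type replicate 1, 15 were higher and 1 lower, and against it alone 5 were higher and 8 lower (median -0.08). Tgm2, a crosslinking enzyme that works by another chemistry than Lox, was at 53.9 ± 9.13 FPKM against 14.1, 1.80 and 2.26 FPKM (change 3.39, limma adjusted p = 2.13e-04), and its paralogue Tgm3 was at 14.3 ± 5.47 FPKM against 0.44, 0.97 and 1.07 FPKM (change 2.996, limma adjusted p = 7.35e-05). Efemp1, a fibulin, was at 159 ± 34.9 FPKM against 64.6, 20.5 and 13.4 FPKM. All 3 rose also against wild-type replicate 1 alone, by 1.84, 3.32 and 1.26.

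Other protease systems were mixed. In the plasminogen list 4 of 8 genes rose without wild-type replicate 1 (all genes 42.2%), and the median change against it alone was -1.41. With all wild-type libraries 2 of 8 rose, a share under the 31.8% of all genes, and 0 fell. The 2 were the serpin genes Serpine2, at 232 ± 19.96 FPKM against 37.9, 55.9 and 49.8 FPKM, and Serping1, at 228 ± 47.9 FPKM against 5.17, 15.2 and 8.37 FPKM. The urokinase gene Plau was at 4.68 ± 1.43 FPKM against 27.0, 15.3 and 3.27 FPKM (change -1.17, limma adjusted p = 0.0639, and -2.34 against replicate 1 alone, limma adjusted p = 3.03e-04). Cathepsins and cystatins had 8 of 13 higher (all genes 31.8%) and 0 lower (12.8%), with a median of 1.04, 13 higher without replicate 1, and 4 higher and 1 lower (median 0.10) against it alone. The 3 with the smallest p were Ctsf at 30.6 ± 4.12 FPKM against 3.78, 5.69 and 5.40 FPKM, Ctso at 7.35 ± 0.88 FPKM against 1.47, 0.92 and 0.71 FPKM, and the cystatin gene Cst6 at 2.06 ± 0.57 FPKM against 0.16, 0.05 and 0.05 FPKM. Cst6 reached 1 FPKM only with the MSTN+/- label, so passing the filter already implied its difference.

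ADAM sheddases, membrane relatives of the ADAMTS enzymes, had 3 of 10 higher, a share near the 31.8% of all genes, and 2 lower, beside 12.8% of all genes. Without wild-type replicate 1, 7 were higher (all genes 42.2%) and 2 lower (31.9%), and the median change against it alone was -0.255. Adam15 was at 102 ± 12.4 FPKM against 36.3, 14.7 and 8.64 FPKM (change 2.52, limma adjusted p = 2.08e-04), while Adam19, at 11.1 ± 2.21 FPKM against 40.5, 27.9 and 24.2 FPKM, and Adam8, at 1.01 ± 0.35 FPKM against 3.20, 3.43 and 3.65 FPKM, fell (changes -1.38 and -1.15, limma adjusted p = 3.49e-04 and 4.09e-04). Both were lower than all 3 wild-type libraries in 7 of 7 MSTN+/- libraries. Of 11 regulators 8 rose (all genes 42.2%) and 1 fell (31.9%) without wild-type replicate 1, and the median change against it alone was 0.945. With all wild-type libraries 6 rose (all genes 31.8%) and 0 fell (12.8%), with a median of 1.01. The 6 included Reck, a membrane-anchored Mmp inhibitor, at 19.5 ± 4.77 FPKM against 6.41, 3.95 and 2.82 FPKM, the proprotein convertase gene Pcsk5, at 5.99 ± 1.102 FPKM against 0.91, 0.19 and 0.13 FPKM, and the testican gene Spock2, at 25.4 ± 4.48 FPKM against 0.68, 3.80 and 3.37 FPKM. Pcsk5, too, reached 1 FPKM only with the MSTN+/- label. Of 11 genes for large aggregating proteoglycans, their link proteins and hyaluronan synthases, 3 were tested: Acan, Vcan and the synthase gene Has2. Acan, the aggrecan gene, was at 0.24 ± 0.14 FPKM against 1.36, 1.75 and 1.28 FPKM. It reached 1 FPKM only among the wild-type libraries and had no value once any of them was left out, so passing the filter already implied its difference (change -0.995, limma adjusted p = 5.27e-04). Vcan and Has2 did not pass (limma adjusted p = 0.610 and 0.735), with Vcan at 71.2, 9.45 and 5.38 FPKM and Has2 at 9.0, 1.19 and 1.30 FPKM among the wild-type libraries against 21.9 ± 6.24 and 2.30 ± 0.63 FPKM.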

How the data were processed

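The authors deposited 1 table of FPKM values for 10 libraries, per the file headers, rounded to 2 decimals. No aligner or build is named there, and the counting is not given in the sources used here. Genotype labels gave the groups and library titles the columns; replicate numbers only name libraries. Columns with identical values numbered 0.

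Because FPKM is not a read count, limma 3.58.1 (R 4.3.3) was fitted to log2(FPKM + 1), which understates changes of low genes, with an intensity trend, no covariate and 8 residual degrees of freedom. It covered 14047 genes that reached 1 FPKM in 3 or more libraries, with Benjamini-Hochberg adjustment over all of them and a threshold of 0.05. The procedure was tested on simulated data. Values are given for every tested gene of the set, most fully for those reaching 10 FPKM, and for the 3 genes of smallest p in each related list. The members, the 9 related lists, the 10 marker lists and the tests were chosen with earlier results of these data known. The 19 alternatives covered other scalings (median-of-ratios, TPM, quantile), the pseudocount (0.1), the filter (none, or a mean of 5 FPKM), robust variance, library weights, each library left out in turn, and wild-type replicate 1 alone. Figures used matplotlib 3.10.9.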

Additional observations from a re-analysis of the deposited data

Results flagged for a closer look

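In 31 sets of 7 values from the MSTN+/- libraries (25 genes and 6 family sums), Dixon's test at a critical ratio of 0.568 set 1 library apart in 6, where chance does so in about 1 set in 20. The sets share libraries and are not independent. MSTN+/- replicate 7 stood above the other 6 in 5 of them: Mmp11 at 34.1 FPKM, Adamts2 at 17.6 FPKM, Loxl2 at 126.62 FPKM, Plod1 at 95.4 FPKM and the Plod sum at 199 FPKM, to which Plod1 contributes. In MSTN+/- replicate 3, Mmp3 stood above the others at 9.58 FPKM. Without replicate 7, 19 genes of the set were higher and 1 lower, beside 21 and 1 with it.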

How the results depend on the processing

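The labels number no replicates, so no paired analysis was possible because no library of one group is tied to a library of the other. Total depth is unknown, which leaves the counting error of genes under 1 FPKM without a bound. Called genes of the set past the threshold in the same direction in every alternative in which they were tested numbered 6 of 22 (Mmp28, Timp3, Adamts17, Adamtsl1, Adamtsl4 and Loxl4). For Mmp28 and Adamts17, which reached 1 FPKM only in MSTN+/- libraries, passing the filter already implied a difference. Scaling moved the median change of all genes from 0.17 to -0.005 (median-of-ratios), 0.15 (TPM) and -0.105 (quantile), and the higher share of all calls from 71.3% to 50.1%, 65.0% and 42.7%, with 59.1% under library weights and 57.0% without wild-type replicate 1. Quantile normalization gave 2874 higher genes in place of 4468, and the lower genes, 1800 as deposited, numbered 3234 with median-of-ratios scaling, 3851 with quantile normalization and 3368 with library weights. Leaving out 1 library gave 3445 to 5898 higher and 791 to 4449 lower genes, the lowest without wild-type replicates 3 and 2 (791 and 793) and the highest without replicate 1. In the set, the higher count of 21 was 13 at a mean of at least 5 FPKM, where 25 genes were tested, 7 against wild-type replicate 1 alone, and 14 to 33 when 1 library was left out. The lower count of 1 was 2 with median-of-ratios scaling (also Adamts14), 3 with TPM (also Mmp9 and Mmp10), 4 with quantile normalization (also Adamts14, Adamts9 and Mmp17), 5 with no low-value filter (also Mmp9, Mmp1b, Mmp10 and Adamts19), 11 against replicate 1 alone, and 0 to 2 when 1 library was left out (0 in limma without wild-type replicate 2, and 1 at an unadjusted p under 0.05). With library weights 29 of 41 were higher, beside 4862 of 14047 for all genes, and 10 of the 29 were not called as deposited. That fit stopped before its convergence tolerance. For all genes, 3074 of 9697 were higher at a mean of at least 5 FPKM. Lower genes numbered 2317 of 15508 with TPM and 1808 of 21014 with no low-value filter. Median-of-ratios scaling put the mean log2 difference of the Mmp, Timp, Adamts and Adamtsl sums at 0.61, 1.82, 1.19 and 2.53 in place of 0.82, 2.04, 1.41 and 2.74.

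Directions turned for genes near no change or split between wild-type libraries, and the cause was not tested. Against replicate 1 alone the change was 0.41 for Mmp13, -0.59 for Mmp14, 0.063 for Mmp17, -0.71 for Mmp19, -0.16 for Mmp23, -0.087 for Timp2, -1.005 for Adamts1, -0.51 for Adamts4, -1.09 for Adamts12, -0.29 for Adamts6, -1.39 for Adamtsl3, -1.24 for Lox, -2.13 for Loxl1, -0.97 for Loxl2, -0.44 for Loxl3 and -0.78 for Plod3. Mmp19 turned to -0.18 with median-of-ratios, -0.035 with TPM and -0.29 with quantile scaling, where Adamts8, Adamts13 and Adamtsl3 were at -0.13, -0.47 and -0.45. With library weights Adamts9 was at 0.088 and Adamts13 at -0.29. Leaving out 1 library, changes ran from -0.18 to 0.38 for Mmp19 (without wild-type replicates 3 and 1; -0.05 without MSTN+/- replicate 7 and -0.15 without wild-type replicate 2), from -0.196 to 0.019 for Mmp17 (without wild-type replicates 1 and 3), from -0.27 to 0.36 for Adamts13 (without 1 and 3), from -0.32 to 1.745 for Loxl1 (without 3 and 1; -0.07 without 2) and from -0.31 to 0.94 for Adamtsl3 (without 2 and 1; -0.14 without 3).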
